A study of Rattus norvegicus with 18 samples.

Results

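Gpr37, Hapln2 and Spock1 are 3 of the 13337 genes with a symbol on the array, and each was measured by 1 probe (ILMN_1349606, ILMN_1357365 and ILMN_1373684). They were chosen by their measured levels: outside the myelin proteins, they stood among the strongest risers between day 0 and day 2 of differentiation without inhibitor, so their levels at day 0 and at day 2 control are described here without a test. Gene expression was profiled in primary oligodendrocyte progenitors (OLPs) isolated from neonatal Sprague-Dawley rats and differentiated in culture, with or without PD169316, an inhibitor of the p38α and p38β kinases. The groups were day 0, day 1 PD169316, day 1 control, day 2 PD169316, day 2 control and day 4 PD169316, with 3 arrays each and 18 in all. Controls received the vehicle DMSO per the study's methods, and no control was labelled for day 4, so a difference that involves day 4 carries time and inhibitor together. Those methods also state that the progenitors were held in the mitogens PDGF-AA and bFGF and differentiated once these were removed. A difference from day 0 may therefore carry this change of medium as well as time. Whether the 3 arrays of a group stand for separate cultures is not in the labels. Every p-value rests on the spread among the 3 arrays within groups, pooled over all 6 groups unless stated otherwise. This spread may therefore be technical. Transcripts of astrocytes and microglia were detected in the cultures as well, and in such bulk RNA fewer cells of a type and less RNA per cell cannot be told apart.

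Gpr37 encodes a G protein-coupled receptor of the brain, also known as the parkin-associated endothelin receptor-like receptor, which is abundant in oligodendrocytes and in mice restrains their differentiation and myelination. Hapln2, also called Bral1, is a secreted link protein that ties hyaluronan to lecticans such as versican in the matrix around nodes of Ranvier. Spock1 encodes testican-1, a secreted proteoglycan of the SPARC family that inhibits cathepsin L and has been linked to membrane-type matrix metalloproteinases. Oligodendrocytes switch on a large set of surface, matrix and myelin genes as they leave the cell cycle and mature, and p38 activity is known to be needed for that maturation in culture.

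The promoters are shown as background to 3 genes that were chosen together as strong risers. They are the 250 bases before the annotated start of each gene, 5′ to 3′ on the strand of the gene, from RefSeq on the build GRCr8, with capitals at every match to the motifs searched.
Gpr37, chr4:55126421-55126670, minus strand: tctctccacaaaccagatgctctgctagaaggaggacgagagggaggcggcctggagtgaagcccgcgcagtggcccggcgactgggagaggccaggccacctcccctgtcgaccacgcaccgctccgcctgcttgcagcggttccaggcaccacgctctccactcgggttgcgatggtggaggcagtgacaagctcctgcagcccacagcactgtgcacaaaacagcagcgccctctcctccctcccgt
Hapln2, chr2:175794439-175794688, minus strand: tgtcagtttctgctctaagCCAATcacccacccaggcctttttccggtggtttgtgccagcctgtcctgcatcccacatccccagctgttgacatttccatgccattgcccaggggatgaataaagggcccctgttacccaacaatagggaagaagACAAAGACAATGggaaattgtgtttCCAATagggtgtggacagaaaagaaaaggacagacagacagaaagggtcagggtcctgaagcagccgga
Spock1, chr17:6746642-6746891, plus strand: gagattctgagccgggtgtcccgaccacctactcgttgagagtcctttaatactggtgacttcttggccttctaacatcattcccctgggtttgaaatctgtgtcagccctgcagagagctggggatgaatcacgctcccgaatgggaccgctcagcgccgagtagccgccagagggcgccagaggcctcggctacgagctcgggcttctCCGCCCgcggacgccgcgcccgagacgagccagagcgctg
The motifs searched on both strands were the core promoter letters TATAAA of the TATA box, the letters CCAAT of the box of that name, and GGGCGG of the GC box. They also included the letters ACAAAG bound by SOX factors, their variant ACAATG with the same use, and TGACTCA of the AP-1 factors. Hapln2 held CCAAT at 2 places, a motif found in 34.0% of the 33469 promoters of the same length, and ACAAAG directly followed by ACAATG, which stood in 16.3% and 11.1% of promoters. Spock1 held GGGCGG once, on the opposite strand (30.5% of promoters), and Gpr37 held none of the letters searched. TATAAA (12.9% of promoters) and TGACTCA (4.05%) were in none of the 3 windows. The windows of Gpr37 and Spock1 were rich in G and C (66.0% and 62.4%, with 16 and 22 CpG), whereas that of Hapln2 had 50.8% and 2 CpG, beside a median of 51.2% and 5 CpG over all promoters. So no searched motif was common to the 3 genes.

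All levels below are log2 normalized intensities, on which a difference of 1 is a 2-fold change. Each of the 3 probes was detected on all 18 arrays, with a standard error between beads of 2.00 to 7.12% of the signal from 24 to 61 beads. Between 9789 and 10773 of the 22523 probes were detected per array, and 10574 passed the filter on low signals. The oligodendrocyte lineage factors Olig1 and Sox10 were detected on all 18 arrays. In terms of the whole profile, 2 libraries stood closer to the other day 2 group than to their own label. For day 2 control 3, the correlation was 0.986 to 0.987 within its labelled group but 0.997 with day 2 PD169316 2. For day 2 PD169316 1, it was 0.980 to 0.983 within its labelled group but 0.994 with day 2 control 2. The differences of the 3 genes that rest on day 2, and the counts of related genes at day 2 control against day 0, are therefore given with and without these 2 libraries.

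Gpr37 transcript levels were higher at each later day, with and without the inhibitor. At day 0, Gpr37 measured 6.73, 6.62 and 7.21 on the 3 arrays. At day 1, its levels were 9.24, 9.20 and 9.07 with PD169316 and 8.94, 8.74 and 8.95 in control. Every day 1 array lay above every day 0 array, and every PD169316 array of day 1 lay above every control array. At day 2, the levels were 10.90, 10.20 and 10.19 with PD169316 and 10.73, 10.74 and 10.07 in control. At day 4 with PD169316 they were 11.54, 12.24 and 11.48, above all other arrays. The day 2 groups overlapped, since the library labelled day 2 PD169316 1 was as high as control arrays 1 and 2, and that labelled day 2 control 3 was as low as the other two PD169316 arrays.

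Hapln2 gained more after day 1 than before it. It measured 6.09, 6.32 and 6.17 at day 0. At day 1 it measured 7.72, 7.51 and 7.66 with PD169316 and 7.60, 7.38 and 7.54 in control, so that the 2 groups of day 1 overlapped. At day 2, Hapln2 levels were 9.71, 9.30 and 9.38 with PD169316 and 9.94, 9.60 and 9.40 in control. The day 2 groups overlapped as well, and both lay above every array of day 1. At day 4 with PD169316, the link protein transcript stood at 10.94, 11.73 and 10.88, higher than on any other array.

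For Spock1, the spread within groups was the smallest of the 3 genes at day 1 and day 2. Its levels were 7.08, 6.80 and 6.71 at day 0. At day 1 they were 8.93, 8.82 and 8.81 with PD169316 and 9.23, 9.20 and 9.19 in control. Here, in contrast to Gpr37, every PD169316 array of day 1 lay below every control array. By day 2, Spock1 levels were 10.44, 10.35 and 10.28 with PD169316 and 10.30, 10.31 and 10.21 in control, and the groups overlapped. At day 4 with PD169316, the arrays gave 11.18, 11.83 and 11.24, above all others. For all 3 genes the highest value in the series was that of day 4 PD169316 replicate 2.

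**Figure D1:**
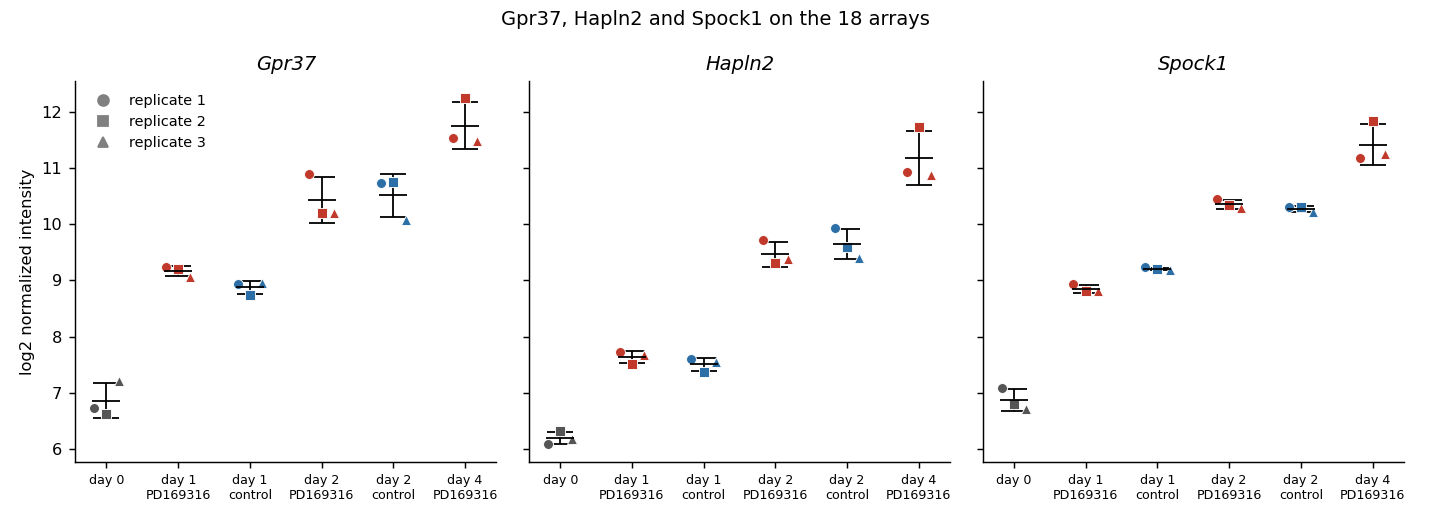
Log2 normalized intensity (y axis) of Gpr37, Hapln2 and Spock1 in the 6 groups (x axis), with 1 point per array, shaped by replicate number, and black bars for the mean ± SD (n = 3). All day 4 PD169316 points lie above all other points in each panel, and the PD169316 and control points of day 2 overlap for all 3 genes.

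The order of the group means was day 0, day 1, day 2 and day 4 for the 3 genes. Gpr37 averaged 6.86 ± 0.31 at day 0, 9.17 ± 0.09 at day 1 PD169316, 8.87 ± 0.12 at day 1 control, 10.43 ± 0.41 at day 2 PD169316, 10.51 ± 0.38 at day 2 control and 11.75 ± 0.42 at day 4 PD169316 (SD, n = 3 each). Hapln2 averaged 6.19 ± 0.11 at day 0, 7.63 ± 0.11 at day 1 PD169316, 7.51 ± 0.12 at day 1 control, 9.46 ± 0.22 at day 2 PD169316, 9.64 ± 0.27 at day 2 control and 11.18 ± 0.48 at day 4 PD169316. Spock1 averaged 6.86 ± 0.19 at day 0, 8.85 ± 0.07 at day 1 PD169316, 9.20 ± 0.02 at day 1 control, 10.36 ± 0.08 at day 2 PD169316, 10.27 ± 0.06 at day 2 control and 11.42 ± 0.36 at day 4 PD169316. Neighbours in this order whose arrays overlapped were the 2 day 2 groups, for each gene, and the 2 day 1 groups for Hapln2. All other neighbours had arrays that did not overlap. These included the 2 day 1 groups for Gpr37 and Spock1, where 41.5% of all probes were apart in either direction. Neither day 1 difference passed in limma (adjusted p = 0.462 for Gpr37 and 0.116 for Spock1). For day 4 PD169316 against day 2 control, the share of all probes apart was not computed. Across all probes, arrays higher without overlap were found for 28.7% at day 1 PD169316 against day 0, 25.5% at day 1 control against day 0, 11.9% at day 2 PD169316 against day 1 PD169316, 16.5% at day 2 control against day 1 control and 14.4% at day 4 PD169316 against day 2 PD169316.

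The comparison that chose the genes, day 2 control against day 0, is given as a description. Gpr37 was 12.6-fold higher at day 2 control (a log2 difference of 3.66), Hapln2 10.9-fold (3.45) and Spock1 10.6-fold (3.41). The size of these differences depended on the background correction: without it they were 2.86, 2.39 and 2.64 for Gpr37, Hapln2 and Spock1, and on the deposited values without normalization 2.56, 2.12 and 2.34. They held places 3, 5 and 7 among all 10574 probes. The genes just around them were Mobp, a myelin protein, at 4.35 above Gpr37, Tmem125 at 3.42 between Hapln2 and Spock1, and, just below, the prostaglandin D synthase Ptgds at 3.40 and the lysophosphatidic acid receptor Lpar3 at 3.34. All 3 genes had day 2 control arrays above day 0 without overlap, as 26.2% of all probes did. Without the 2 doubted day 2 libraries, the differences were 3.89, 3.58 and 3.45 for Gpr37, Hapln2 and Spock1. The timing was unequal: at day 1 control, Spock1 already stood 2.34 above day 0 and Gpr37 2.02, while Hapln2 stood 1.31 above it. Between day 1 control and day 2 control the order turned, with a further 2.14 for Hapln2, 1.64 for Gpr37 and 1.07 for Spock1. The differences in timing between the 3 genes were not tested. At day 4 with PD169316, Gpr37, Hapln2 and Spock1 stood 29.8-, 31.8- and 23.5-fold above day 0, log2 differences of 4.90, 4.99 and 4.55. These too were smaller without background correction (4.05, 3.83 and 3.72) and on the deposited values (4.00, 3.79 and 3.68).

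To ask whether p38 inhibition changed these transcripts on the first day, the PD169316 and control arrays of day 1 were compared, a contrast that did not enter the choice of the genes. None of the 3 passed an adjusted p of 0.05 in limma, where 11.1% of all probes did. Spock1 was lower by a log2 difference of -0.35 (SE 0.14, 95% interval -0.64 to -0.06), or 0.784-fold, with an adjusted p of 0.116 and an unadjusted p of 0.0213. Gpr37 differed by 0.29 (SE 0.24, interval -0.21 to 0.80, adjusted p = 0.462), with 3 of 3 PD169316 arrays above all controls. Hapln2 differed by 0.12 (SE 0.19, interval -0.29 to 0.53, adjusted p = 0.720). Arrays of the 2 groups did not overlap for 2 of the 3 genes, beside 41.5% of all probes. The Spock1 difference passed the threshold when only the 6 arrays compared were fitted (adjusted p = 0.0102), with array weights (0.0133) and without the library day 4 PD169316 2 (0.0189), and its size was within -0.39 to -0.28 over all alternatives. The SEs given first use the spread pooled over all 6 groups. When only the 6 arrays compared were fitted, Gpr37 had an SE of 0.0859 and an adjusted p of 0.0515, its lowest over all alternatives. Hapln2 had an adjusted p of 0.368 in that fit.

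At day 2, with all 6 libraries under their labels, no member was separated by treatment. The PD169316 arrays differed from control by -0.08 for Gpr37, -0.18 for Hapln2 and 0.08 for Spock1, and the groups overlapped in 3 of 3 genes; 6.34% of all probes were apart in either direction. Without the 2 libraries that resembled the other label, 2 arrays were left in each group. On those, Gpr37 averaged 10.20 with PD169316 and 10.74 in control, a difference of -0.54, and Hapln2 averaged 9.34 with PD169316 and 9.77 in control, a difference of -0.43. Spock1 averaged 10.31 in both, with a difference of 0.01. On these arrays, Gpr37 with PD169316 (10.20 and 10.19) lay below control (10.73 and 10.74) without overlap. Hapln2 with PD169316 (9.30 and 9.38) also lay below control (9.94 and 9.60), whereas the Spock1 arrays overlapped. The share of all probes apart on these arrays was not computed. These values are a description, since day 2 control entered the choice of the genes.

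Levels went on rising in the presence of PD169316. Between day 1 and day 2 with PD169316, all 3 genes rose at an adjusted p under 0.05, as 2.75% of all probes did. Hapln2 rose by 1.83 (SE 0.19, interval 1.42 to 2.24), a 3.56-fold increase and place 2 from the top among all probes, with an adjusted p of 5.29e-05. Spock1 rose by 1.50 (SE 0.14, interval 1.21 to 1.79), 2.83-fold, at place 7 (adjusted p = 1.1e-05). Gpr37 rose by 1.26 (SE 0.24, interval 0.76 to 1.77), 2.40-fold, at place 17 (adjusted p = 0.00591). Without the 2 doubted libraries, the rises were 1.71 for Hapln2, 1.46 for Spock1 and 1.03 for Gpr37, and each kept an adjusted p of 0.00781 or lower.

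A further rise was seen at day 4. Between day 2 and day 4 with PD169316, all 3 genes rose at an adjusted p under 0.05, where 10.2% of all probes rose. Hapln2 gained 1.72 (SE 0.19, interval 1.31 to 2.13, adjusted p = 7.78e-05), or 3.29-fold, at place 22. Gpr37 gained 1.32 (SE 0.24, interval 0.82 to 1.83, adjusted p = 0.00195), or 2.50-fold, at place 101. Spock1 gained 1.06 (SE 0.14, interval 0.77 to 1.35, adjusted p = 0.000247), or 2.09-fold, at place 192. When only the 6 arrays compared were fitted, the Gpr37 difference of 1.32 lost its call (adjusted p = 0.055). Without the 2 doubted day 2 libraries, the gains were 1.85, 1.56 and 1.10 for Hapln2, Gpr37 and Spock1, at adjusted p of 9.73e-05 or lower.

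**Figure D2:**
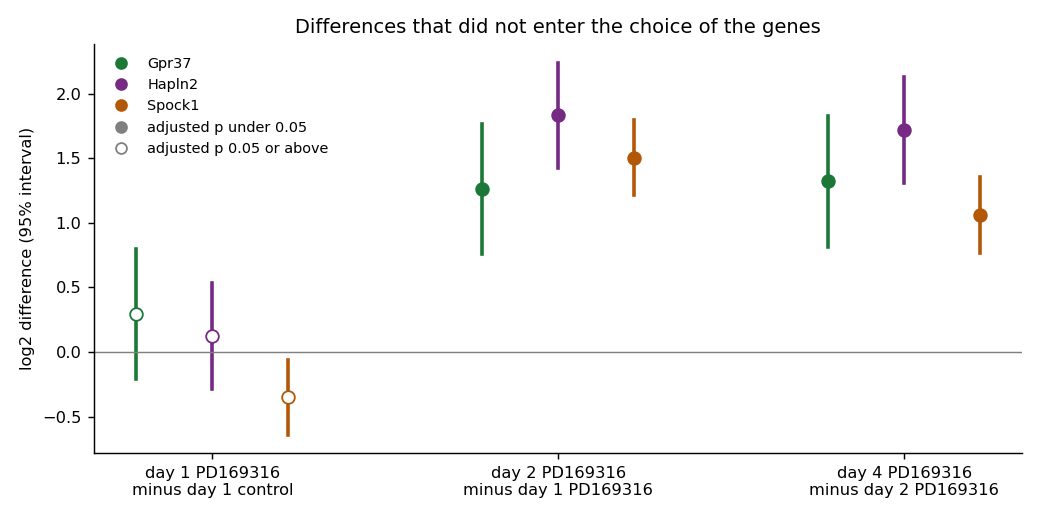
Log2 difference (y axis, points) with its 95% interval (lines) of Gpr37, Hapln2 and Spock1 in 3 comparisons (x axis), with filled points at an adjusted p under 0.05 in limma. The differences did not use day 0 or day 2 control, but the intervals and adjusted p use the spread pooled over all 6 groups. All 6 points of the later comparisons are filled and lie between 1.06 and 1.83, whereas the 3 points of day 1 PD169316 minus day 1 control are open and lie between -0.35 and 0.29.

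Over the 18 arrays, the 3 genes had a Pearson r of 0.981 for Gpr37 and Spock1, 0.973 for Gpr37 and Hapln2 and 0.960 for Hapln2 and Spock1. The points share the groups and the normalization, and they include the day 0 and day 2 control arrays that chose the genes, so a high r follows from the choice and carries no test. Among the named probes, Spock1 held place 11 and Hapln2 place 24 in likeness to Gpr37, and Spock1 place 41 in likeness to Hapln2. The genes most like Gpr37 were Plekhh1 (r = 0.993), Pls1 (0.992), which encodes an actin-bundling plastin, the glycerol-3-phosphate dehydrogenase Gpd1 (0.989), the lysosomal protease Ctsl (0.988) and Phlda3 (0.986). Plekhh1 matched Gpr37 also in its order at day 1, with a mean of 9.34 in PD169316 and 8.88 in control arrays. The other genes most like Gpr37 had nearly equal day 1 means in PD169316 and control arrays. These were 8.57 and 8.54 for Pls1, 11.49 and 11.53 for Gpd1, and 14.76 and 14.75 for Ctsl, with Phlda3 at 9.775 and 9.761. Those most like Hapln2 were the sialyltransferase St6galnac3 (0.990), the actin filament cap Tmod1 (0.987), Ndrg1 (0.986), Phlda3 (0.984) and the small heat shock protein Cryab (0.983). For Spock1 they were the myelin proteolipid Mal (0.992), the cholesterol transporter Npc1 (0.984), Ndrg1 (0.981), the cytochrome P450 Cyp3a9 (0.978) and Pls1 (0.977). Mal resembled Spock1 at day 1, with a mean of 7.84 in PD169316 and 8.43 in control arrays. Npc1, Ndrg1 and Cyp3a9 also had lower means with PD169316 at day 1, whereas Pls1 did not. Ranked by Spearman correlation instead, 1, 2 and 0 of the 5 nearest genes of Gpr37, Hapln2 and Spock1 stayed among the first 5.

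**Figure D3:**
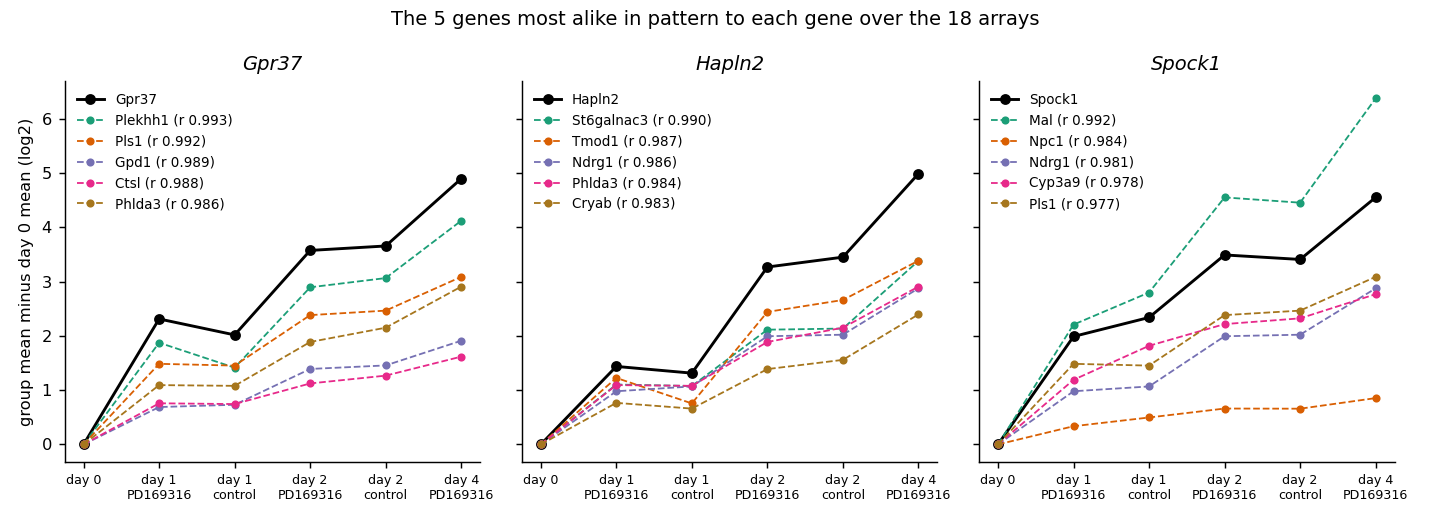
Group mean minus the day 0 mean on the log2 scale (y axis) in the 6 groups (x axis) for Gpr37, Hapln2 and Spock1 (black) and the 5 genes with the highest Pearson r to each over 18 arrays (dashed), with lines only to guide the eye. Each black line ends between 4.55 and 4.99 at day 4 PD169316, and Mal is the only dashed line above it.

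Among the matrix and hyaluronan genes listed with Hapln2, Vcan and Acan fell and Hmmr rose. Of 17 link proteins, lecticans and hyaluronan genes, 8 were measured, and at day 2 control against day 0 1 rose and 3 fell, with a median log2 difference of -0.19 beside -0.00060 over all probes, of which 20.6% rose and 21.6% fell. Vcan, the versican core protein to which Hapln2 binds at nodes, averaged 12.31 ± 0.32 at day 2 control and 13.48 ± 0.09 at day 0 (SD, n = 3 each), and fell by 1.17 (adjusted p = 5.13e-05). Acan, the aggrecan core protein, was detected on 2 of 3 day 2 control arrays and fell by 0.79 (adjusted p = 0.000193), and the hyaluronan-mediated motility receptor Hmmr, a gene of dividing cells, rose by 0.93 (adjusted p = 0.000418). The hyaluronan synthase Has2 was not well above background on any day 2 control array, was detected on 2 of 3 day 0 arrays, and was at least 1.10-fold lower at day 2 control than at day 0 (adjusted p = 0.0165). The other link proteins gave no usable signal: Hapln1 was detected on 0 arrays, Hapln4 on 6 and Hapln3 on 10, too few in each group to be tested. At day 1, 2 of the 8 rose and 3 fell with PD169316 against control, where 6.59% of all probes rose and 4.48% fell. Hmmr rose by 1.22 (adjusted p = 0.000193), and Has2 was at least 1.43-fold lower than in control, being not well above background on any PD169316 array. Has2 passed the filter on low signals only through the day 1 control arrays, so its difference there carries no test, and without it 2 of 7 rose and 2 fell. The lectican Bcan, named here after its values were seen, was 1 of the falls at day 1, by 0.87 (adjusted p = 0.000306). At day 2 control against day 0, Bcan differed by 0.09 (adjusted p = 0.584).

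Genes of the node and paranode, where the axon meets the myelin loops and where Hapln2 protein is found, moved in either direction. Of 16 such genes 7 were measured, and at day 2 control against day 0 3 rose and 1 fell (median 0.51), beside 20.6% and 21.6% of all probes. The scaffold Dlg1 rose by 0.90 (adjusted p = 0.0221) and the spectrin Sptbn1 by 0.81 (adjusted p = 0.000231), while the band 4.1 protein Epb41l3 fell by 1.46 (adjusted p = 6.53e-07). At day 1, Epb41l3 averaged 11.08 ± 0.11 with PD169316 and 10.27 ± 0.04 in control, a difference of 0.81 (adjusted p = 0.000714). Gldn, the nodal ligand gliomedin, was detected on all 3 PD169316 arrays and on no control array of day 1, and was at least 1.19-fold higher with PD169316. It passed the filter only through those PD169316 arrays, so this difference carries no test. Of the 7 genes 2 rose and 1 fell at day 1, and without Gldn 1 of 6 rose and 1 fell, where 6.59% of all probes rose and 4.48% fell.

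Of the relatives of Spock1, Spock2 and Smoc1 fell and Sparc rose. In the testican and SPARC family, 6 of 10 genes were measured, of which 3 rose and 2 fell at day 2 control against day 0 (median 0.10), where 20.6% of all probes rose and 21.6% fell. The nearest relative measured, Spock2 or testican-2, averaged 7.02 ± 0.31 at day 2 control and 8.39 ± 0.18 at day 0, and fell by 1.37 (adjusted p = 9.57e-05). Smoc1, a secreted calcium-binding protein detected on 2 of 3 day 2 control arrays, fell by 3.01 (adjusted p = 1.17e-06), and Sparc, the founding member, rose by 0.73 (adjusted p = 0.00226). At day 1 with PD169316, Sparc was 0.84 higher (adjusted p = 0.00322) and Smoc1, detected on 2 of 3 PD169316 arrays, fell by 1.01 (adjusted p = 0.0323), the 2 calls among the 6 genes, beside 11.1% of all probes. Of the proteases and protease inhibitors listed beside the testicans, 9 of 14 were measured, with 3 rises and 2 falls at day 2 control against day 0, beside the same 20.6% and 21.6%. Ctsl, the cathepsin that testican-1 inhibits, rose by 1.27 (adjusted p = 6.13e-07) and again by 0.49 between day 2 and day 4 with PD169316 (adjusted p = 0.00706). The membrane-type metalloproteinase Mmp16 fell by 1.40 (adjusted p = 0.000417). The inhibitor Timp1 rose by 0.95 (adjusted p = 0.000114), and Timp3 was at least 1.47-fold lower at day 2 control than at day 0, with no day 2 control array well above background. Timp3 passed the filter only through the day 0 arrays, so its difference carries no test, and without it 3 of 8 rose and 1 fell. At day 1 with PD169316 against control, 0 of the 9 passed in limma, where 11.1% of all probes did, and 1 had an unadjusted p under 0.05.

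Among receptors, the closest relative of Gpr37 gave no rise. This gene, Gpr37l1, named here after its values were seen, averaged 12.12 ± 0.21 at day 2 control and 12.43 ± 0.08 at day 0, a difference of -0.31 (adjusted p = 0.168), and it fell by 0.57 between day 2 and day 4 with PD169316 (adjusted p = 0.0276). Of 16 receptors related to Gpr37 or typical of glia, 8 were measured, and 3 rose and 2 fell at day 2 control against day 0 (median -0.15), beside 20.6% and 21.6% of all probes. The sphingosine 1-phosphate receptor S1pr5, an oligodendrocyte receptor, rose by 1.50 (adjusted p = 0.00883), Gprc5b by 1.36 (adjusted p = 2.14e-06) and the lysophosphatidic acid receptor Lpar1 by 0.77 (adjusted p = 0.00719), and the muscarinic receptor Chrm3 fell by 1.31 (adjusted p = 6.37e-05). At day 1 with PD169316 against control, Gprc5b was the 1 receptor of the 8 that passed in limma, higher by 0.70 (adjusted p = 0.00329), where 6.59% of all probes rose. S1pr5 differed there by -0.84 without passing (adjusted p = 0.213). Of 16 proposed ligands, partners and effectors of Gpr37, 8 were measured, with 4 small rises and 0 falls at day 2 control against day 0 (median 0.19), beside 20.6% and 21.6% of all probes. Psap, the prosaposin precursor proposed as a ligand of Gpr37, rose by 0.54 (adjusted p = 0.000242), the kinase Map2k1 by 0.42 (adjusted p = 0.0244) and the scaffold Pick1 by 0.26 (adjusted p = 0.0127). Rapgef3 differed by -0.43 without passing (adjusted p = 0.275), and by -0.47 at day 1 with PD169316 against control (adjusted p = 0.349). At day 1 with PD169316 against control, 0 of these 8 passed in limma, where 11.1% of all probes did, and 0 had an unadjusted p under 0.05.

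Myelin protein genes rose strongly over the same days. At day 2 control against day 0, 10 of 11 measured myelin genes rose (median 2.20), where 20.6% of all probes did, led by Mal, detected on 2 of 3 day 0 arrays, at 4.46 (adjusted p = 1.44e-09) and Mobp at 4.35 (adjusted p = 7.31e-07). Opalin, an oligodendrocyte membrane glycoprotein with no day 0 array above background, was at least 6.44-fold higher (adjusted p = 5.87e-07). With PD169316 at day 1, 2 of the 11 fell and 0 rose against control (median -0.47 beside -0.0045 over all probes), where 6.59% of all probes rose and 4.48% fell. Mobp differed there by -0.82 (adjusted p = 0.202) and Mal by -0.59 (adjusted p = 0.0746), beside -0.35 for Spock1, 0.12 for Hapln2 and 0.29 for Gpr37. The differences between these effects were not tested. Between day 1 and day 2 with PD169316, 7 of 11 myelin genes rose and 0 fell (median 1.03), where 2.75% of all probes rose and 2.83% fell, and between day 2 and day 4, 9 rose and 0 fell (median 1.24), where 10.2% rose and 13.1% fell. Without the 2 doubted day 2 libraries, more probes passed over the whole array, 10.8% lower with PD169316 at day 1 and 24.9% higher and 25.4% lower at day 2 control against day 0, so added calls are not read as a result on these lists. In that fit 7 of the 11 myelin genes fell with PD169316 at day 1 and 0 rose (median -0.47), and all 11 rose at day 2 control against day 0 (median 2.43). With PD169316, 7 of the 11 rose between day 1 and day 2 (median 0.73), where 4.14% of all probes rose, and 11 between day 2 and day 4 (median 1.70), where 18.9% did. At day 2 control against day 0 it gave 1 rise and 4 falls among 9 matrix genes, 4 and 1 among 7 node genes, 3 and 3 among 6 testican and SPARC family genes, 3 and 2 among 9 proteases and inhibitors, 3 and 4 among 8 receptors, and 4 and 1 among 8 partners of Gpr37.

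**Figure D4:**
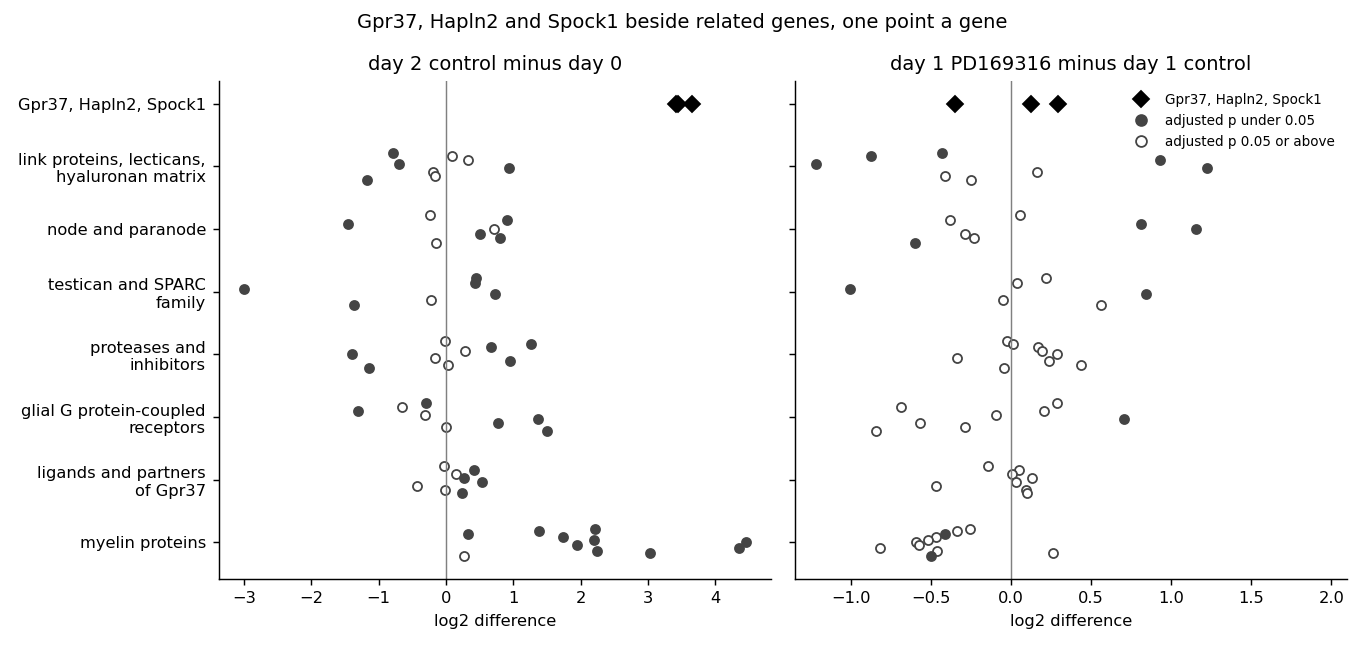
Log2 difference (x axis) of each measured gene in 7 lists (rows), with 1 point per gene, filled at an adjusted p under 0.05 in limma, for day 2 control minus day 0 and for day 1 PD169316 minus day 1 control. Gpr37, Hapln2 and Spock1 (diamonds, not marked for a test) lie between 3.41 and 3.66 at day 2 control minus day 0, where of the related genes only the myelin proteins Mal and Mobp lie further to the right.

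Markers of other cells were measured beside these genes. Those of fibroblasts and pericytes moved the same way: of 8 such markers 4 were measured, and 3 rose at day 2 control against day 0. These were Col1a2, Fn1 and Lum, the last detected on 1 of 3 day 0 arrays. In that comparison 20.6% of all probes rose and 21.6% fell. Of 7 oligodendrocyte lineage markers 2 rose and 5 fell, of 7 astrocyte markers 1 rose and 2 fell. Of 12 neuron markers 3 rose and 6 fell, and of 8 microglia and macrophage markers 0 passed. The summed normalized intensity of the fibroblast and pericyte markers was 749 to 771 at day 0, 1052 to 1419 at day 1 PD169316, 639 to 1231 at day 1 control, 1436 to 2301 at day 2 PD169316, 1581 to 2082 at day 2 control and 2194 to 3995 at day 4 PD169316. Of the defining markers, Col1a1 and Dcn were detected on 6 arrays each and on no day 0 array. At day 1 with PD169316 against control, 6.59% of all probes rose and 4.48% fell. Of the 4 fibroblast and pericyte markers 1 rose there, Fn1, by 0.82 (adjusted p = 0.0303), and 1 of 7 astrocyte markers fell, Gfap, by 0.61 (adjusted p = 0.00437). The summed astrocyte markers were 29903 to 31657 with PD169316 and 40500 to 43266 in control at day 1. Of 7 measured markers of the oligodendrocyte lineage, 4 fell there and 0 rose: Olig2 by 0.69 (adjusted p = 0.00518), Sox10 by 0.33 (0.0108), Olig1 by 0.25 (0.0307) and Cnp by 0.42 (0.0323). Their sum was 74048 to 77300 with PD169316 and 95871 to 97383 in control. Among 12 neuron markers 1 rose and 0 fell at day 1, the synaptotagmin Syt1 by 0.73 (adjusted p = 0.000148), and their sum was 17816 to 19300 with PD169316 and 15502 to 15946 in control. The part of these cells in the levels of Gpr37, Hapln2 and Spock1 was not tested.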

How the data were processed

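The authors hybridized cRNA, made from total RNA of rat OLP cultures, to RatRef-12 BeadChips of Illumina. The intensity values the authors deposited are mean bead signals on a linear scale, neither background-subtracted nor normalized, and their value table equalled these for 405414 of 405414 values. The detection p-value deposited for each probe sets its signal against negative control beads. No normalization is given in the sources used here, and the methods name an empirical Bayes test. The methods give PD169316 at 5 μM.

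The neqc function (limma 3.58.1, R 4.3.3) corrected the background using detection p-values, applied quantile normalization and took log2 after adding 16. A probe was kept if at least 1 group had it detected (p under 0.01) on its 3 arrays (10574 of 22523, of which 7720 had a symbol). One model over the 6 groups (12 residual and 3.16 prior degrees of freedom) gave limma's moderated tests, adjusted by Benjamini-Hochberg over all probes kept, with intervals at 95%. The number of arrays, 3 a group, limits the precision. Symbols came from the array's annotation. The probe of highest mean stood for a related gene. Where no array of a group was above background, the fold is a bound against the lowest detected signal of each array. All probes of the 3 genes were named, with the 5 genes of highest Pearson r to each. In each list, genes were picked for naming by the largest difference, up to 4 at day 2 control against day 0 and up to 2 at day 1. Some genes picked in this way are not given in the text, among them Fstl1, Mog, Timp2, Mmp9 and Adam10. The 3 genes, the lists and the tests were chosen with earlier results of these data known. Alternatives were other background, scaling, offset, filter and threshold settings, the replicate block, array weights and leaving out libraries. The procedure was tested on simulated data. For figures, matplotlib 3.10.9 was used with pandas 2.3.3 under Python 3.11.15.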

Additional observations from a re-analysis of the deposited data

How the results depend on the processing

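For Gpr37, Hapln2 and Spock1, 4 comparisons were recomputed in 29 other settings each: day 2 control against day 0, PD169316 against control at day 1, and day 2 against day 1 and day 4 against day 2 with PD169316. No direction reversed in these. Against day 0, day 2 control differed without background correction by 2.86, 2.39 and 2.64 for Gpr37, Hapln2 and Spock1, and on the deposited values without normalization by 2.56, 2.12 and 2.34. An offset of 50 gave 2.96 for Hapln2 and 3.08 for Spock1. Leaving out 1 library gave 3.54 to 3.88, 3.31 to 3.58 and 3.33 to 3.52. For Spock1 with PD169316 at day 1, the difference passed the threshold with only the arrays compared (-0.35), with array weights (-0.34) and without the library day 4 PD169316 2, and leaving out 1 library gave -0.39 to -0.33. With only the arrays compared, the Gpr37 rise of 1.32 between day 2 and day 4 with PD169316 had an adjusted p of 0.055, and all other rises with PD169316 kept an adjusted p under 0.05. The cause of these shifts was not tested.

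Same-numbered arrays correlated in their deviations at -0.10 to 0.09 at day 1, beside -0.10 to 0.15 for arrays of other numbers. Between day 2 and day 4 with PD169316 these were -0.24 to 0.23 and -0.28 to 0.26. Between day 1 and day 2 with PD169316, same-numbered arrays correlated at 0.03 to 0.10, which was small but above the -0.06 to 0.01 of other numbers. With the replicate block, the day 1 differences were 0.29 for Gpr37 (adjusted p = 0.469), 0.12 for Hapln2 (0.721) and -0.35 for Spock1 (0.111), and no call on the 3 genes changed.

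The count of probes called depended on the setting. At day 1 it was 1171, with 236 on the deposited values and 3089 with array weights; between day 1 and day 2 with PD169316 it was 590 (67 on the deposited values, 3097 with array weights); between day 2 and day 4 it was 2455 (283 with only the arrays compared, 6008 with array weights). For day 2 control against day 0 it was 4461, within 2992 at an adjusted p under 0.01 and 5797 with array weights.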
